A study of Homo sapiens with 8 samples.

Results

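The interferon response genes described here are 46 genes of the human response to interferons, chosen by name from what they are known for. They were chosen with earlier results of these data known. All 46 were found by symbol in each of the 4 count tables the authors deposited, all 46 had counts in all 8 libraries, and all 46 passed the filter on low counts; they stand among 16608 genes with a count in every library, of which 16320 were tested. The cells were SupB15, 1 established human line from a leukemia of B-cell precursors with the Philadelphia chromosome, the fusion of chromosomes that joins BCR to ABL1. Cells received 1035 at 2 µM for 36 h and then doxorubicin at 0.1 µM for 10 h, 1035 alone at 2 µM for 46 h, doxorubicin alone at 0.1 µM for 10 h, or the solvent DMSO for 46 h, with 2 libraries of total RNA for each treatment. The series title calls 1035 an inhibitor of histone deacetylases, enzymes that take acetyl groups off histones, and doxorubicin is a chemotherapy drug, an anthracycline that holds topoisomerase II on broken DNA. The sources used here give neither whether 1035 remained on the cells during doxorubicin nor whether the doxorubicin cultures also had DMSO. A library held between 11760542 and 18144670 counted reads. Levels are given as CPM, counts scaled to a common library total, after TMM scaling, which adjusts libraries for composition. Since these are bulk samples, fewer cells of a kind and less RNA per cell cannot be told apart.

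Interferons are secreted proteins that warn cells of infection. The type I receptor, IFNAR1 with IFNAR2, works through the kinases JAK1 and TYK2, which phosphorylate transcription factors such as STAT2; STAT2 acts with IRF9 in the complex ISGF3, which binds the interferon-stimulated response element (ISRE) in front of its target genes. Interferon gamma works through another element, the gamma-activated sequence (GAS). The products of the target genes sense foreign nucleic acids, block virus entry, assembly or translation, attach the small protein ISG15 to other proteins, or adjust the pathway itself. Many of these genes have a basal level in cells without added interferon.

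RefSeq promoter windows (GRCh38.p14, 250 bases before to 50 after a gene start) were at hand for 36 of the 46 members. The ISRE core, spelled GAAA, any 2 bases and GAAA again and read on both strands, stood in the windows of 21 of these 36 members (58.3%), against 4.38% of 27305 genes. The GAS core, TTC, any 3 bases and GAA, read on both strands, stood in 11 of 36 (30.6%), against 9.38% of genes. Below are the 200 bases before the start of 5 members whose RNA went in different directions with 1035, shown to set the same motif beside different responses: IFITM1, IFI6 and IFIT1, which rose, and IFIT5 and ISG15, which fell. Capitals mark ISRE cores on either strand; IFITM1 lies at chr11:313840-314039 (plus strand), IFI6 at chr1:27672193-27672392 (minus strand), IFIT1 at chr10:89392423-89392622 (plus strand), IFIT5 at chr10:89414368-89414567 (plus strand) and ISG15 at chr1:1013297-1013496 (plus strand), each read 5′ to 3′ along its own gene.
IFITM1: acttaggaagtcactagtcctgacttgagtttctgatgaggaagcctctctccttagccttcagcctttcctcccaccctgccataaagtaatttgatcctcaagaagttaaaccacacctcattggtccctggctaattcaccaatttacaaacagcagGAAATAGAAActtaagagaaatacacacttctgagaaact
IFI6: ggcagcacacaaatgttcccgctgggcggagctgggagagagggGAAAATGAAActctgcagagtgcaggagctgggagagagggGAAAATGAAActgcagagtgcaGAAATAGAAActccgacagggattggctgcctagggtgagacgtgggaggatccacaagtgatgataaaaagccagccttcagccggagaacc
IFIT1: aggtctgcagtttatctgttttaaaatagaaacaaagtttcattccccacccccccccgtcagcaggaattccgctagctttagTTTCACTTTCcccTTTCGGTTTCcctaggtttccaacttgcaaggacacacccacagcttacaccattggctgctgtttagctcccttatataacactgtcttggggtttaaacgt
IFIT5: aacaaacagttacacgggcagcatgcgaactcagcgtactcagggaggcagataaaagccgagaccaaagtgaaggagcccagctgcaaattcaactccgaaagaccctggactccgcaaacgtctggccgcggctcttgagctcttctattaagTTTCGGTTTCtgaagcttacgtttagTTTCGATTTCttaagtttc
ISG15: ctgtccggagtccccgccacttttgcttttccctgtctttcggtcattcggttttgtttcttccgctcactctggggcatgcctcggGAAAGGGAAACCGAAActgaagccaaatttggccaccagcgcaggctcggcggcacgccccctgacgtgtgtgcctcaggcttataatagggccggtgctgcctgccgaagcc
The first base of the core in IFITM1 lay 40 bases before the start. The cores of IFI6 began 156, 115 and 93 bases before the start, those of IFIT1 116 and 103, those of IFIT5 45 and 19, and those of ISG15, which overlap each other, 113 and 107. An ISRE core stood in 9 of 15 members that rose with 1035, 3 of 5 that fell, 5 of 11 called flat and 4 of 5 left undecided, as these classes are defined below. A match is a string of letters in a fixed window and shows no binding.

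With 1035 alone, part of the module rose and a smaller part fell. Of 46 members, 19 were higher with 1035 than with DMSO (41.3%, against 24.2% of all genes tested), and 8 were lower (17.4%, against 24.8% of all genes), by edgeR's quasi-likelihood test with Benjamini-Hochberg adjustment over all 16320 genes at an FDR of 0.05. The median log2 fold change of the members was 0.20, against 0.01 for all genes, and the range was -1.78 to 1.19. Of the 27 members called, 13 rose and 4 fell by at least 0.5 on the log2 scale. Another 14 members did not pass the test and had a 95% interval of the log2 fold change within -0.5 to 0.5, called flat here whether or not the interval holds 0, and 5 did not pass and had a wider interval, called undecided (IFI27, IFI44, IFI44L, IFI35 and OAS3). The share of all reads that fell on the 46 members was 0.310% and 0.300% with 1035, against 0.262% and 0.262% with DMSO. It was 0.321% and 0.324% with 1035 then doxorubicin, against 0.278% and 0.289% with doxorubicin.

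**Figure D1:**
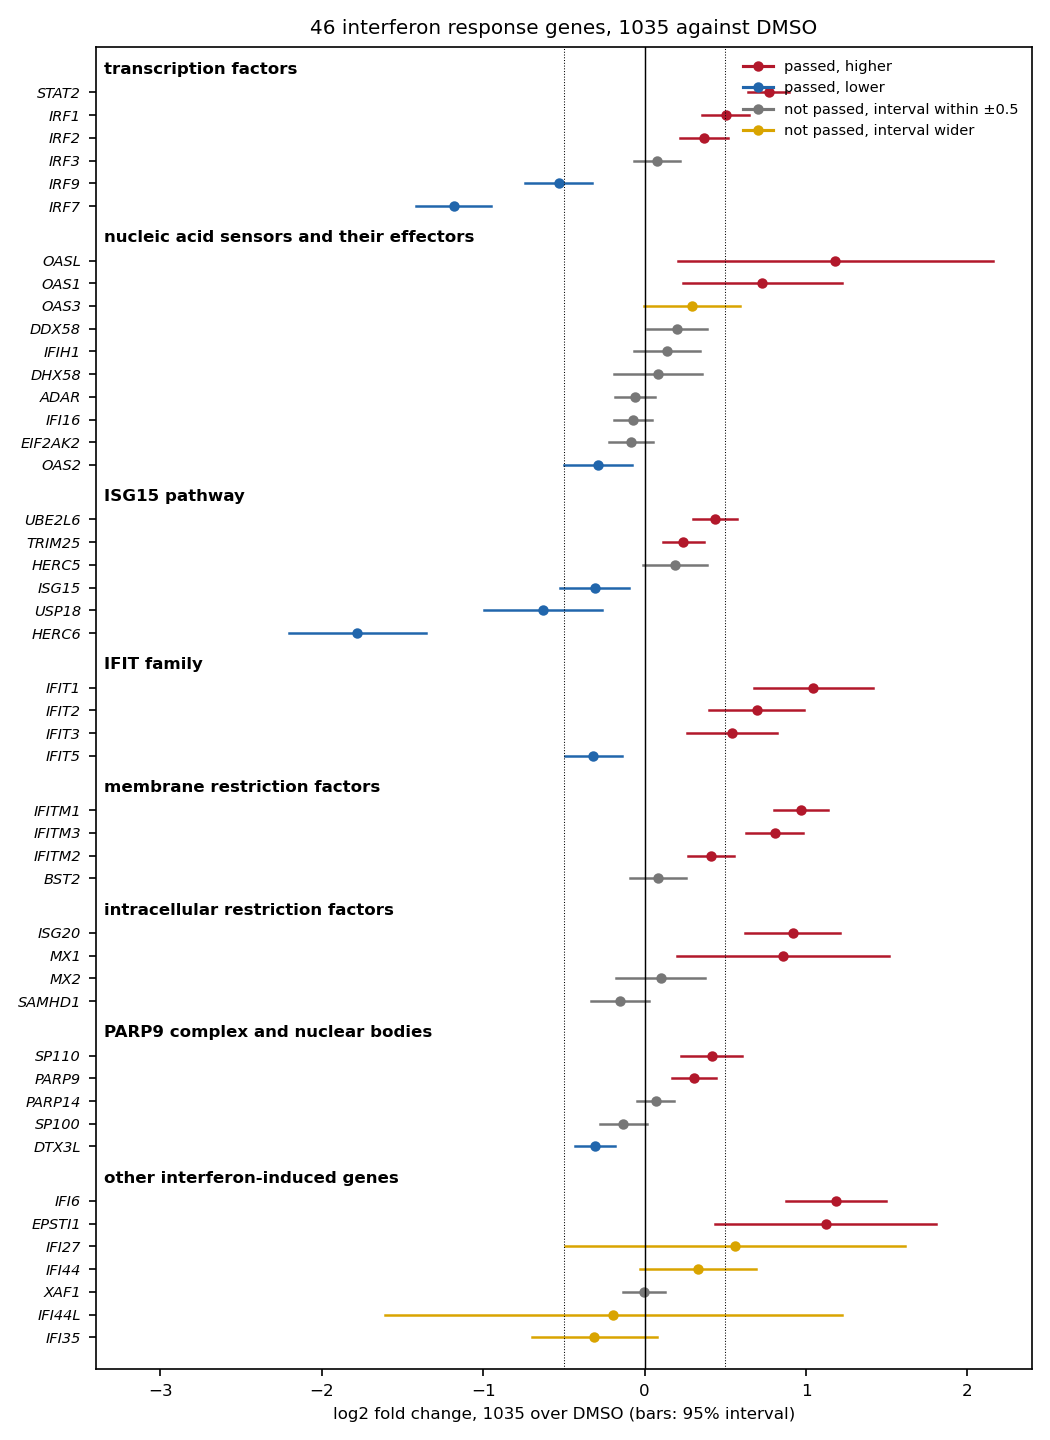
Log2 fold change of each of the 46 members, 1035 over DMSO, grouped by role; points are fitted values, bars 95% intervals, colours the outcome of the test, and dotted lines -0.5 and 0.5. Members of one role point both ways: HERC6 at -1.78 and UBE2L6 at 0.43 stand in the same group, as do IRF7 at -1.18 and STAT2 at 0.77.

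A second comparison of 1035 used other libraries, and its exposure differed. In it 1035 was given for 36 h before doxorubicin, against 46 h in the first comparison, and whether it remained on the cells after that is not given. With 1035 then doxorubicin, 17 members were higher than with doxorubicin alone (37%, against 21.8% of all genes) and 12 were lower (26.1%, against 22% of all genes), 11 were flat and 6 undecided. Of the members called, 15 were higher in both comparisons and 8 were lower in both, and 42 of 46 had the same sign. The shares of all genes doing so are not given here, so these counts do not set the members apart. Across the 46 members the 2 sets of log2 fold changes had a Pearson r of 0.93 and a Spearman rho of 0.94. This is a description over genes that are not independent. Across all genes tested, those of low count included, r was 0.54. The members were not matched to all genes by count, so the values of r do not rank them. In levels, the 4 libraries given 1035 all lay above the 4 others for 18 members (24.5% of all genes did so) and all below for 10 (24.7% of all genes). The number of members called lower depended on the replicate 1 of 1035 then doxorubicin and was smaller without it. The share of all genes called without that library is not given here.

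**Figure D2:**
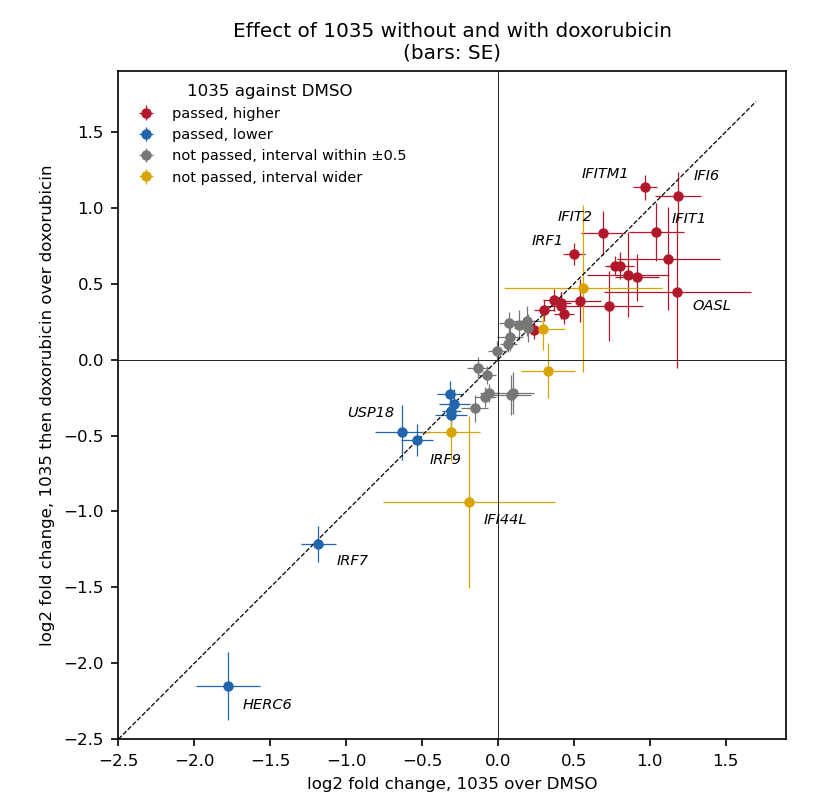
Log2 fold change of 1035 over DMSO (horizontal) against 1035 then doxorubicin over doxorubicin (vertical) for the 46 members, with standard errors as bars and the line of equality dashed. Points lie along the line from HERC6, at -1.78 and -2.15, to IFI6, at 1.19 and 1.08; IFI44L, at -0.19 and -0.94, stands off it with wide errors.

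Among the 6 transcription factors, 3 rose with 1035 (STAT2, IRF1 and IRF2), 2 fell (IRF7 and IRF9) and IRF3 was flat. The shares were 50% higher and 33.3% lower, against 24.2% and 24.8% of all genes tested. STAT2, the part of ISGF3 that activates transcription, was at 180.4 and 159 CPM with 1035, against 101 and 98.2 CPM with DMSO, and at 171 and 162 CPM with 1035 then doxorubicin, against 107 and 109.8 CPM with doxorubicin. IRF9, the DNA-binding part of the same complex, was at 16.99 and 16.4 CPM with 1035, against 24.9 and 23.5 CPM with DMSO, and at 17.7 and 15.6 CPM with 1035 then doxorubicin, against 23.3 and 25.04 CPM with doxorubicin. For both genes every library with 1035 lay apart from every library without it, STAT2 above and IRF9 below. The log2 fold change with 1035 was 0.77 ± 0.06 for STAT2 (SE, n = 2 libraries a group; edgeR adjusted p = 3.8e-13) and -0.53 ± 0.10 for IRF9 (edgeR adjusted p = 3.5e-05). Within a library the ratio of STAT2 reads to IRF9 reads was 10.6 and 9.69 with 1035, against 4.07 and 4.18 with DMSO. It was 9.67 and 10.4 with 1035 then doxorubicin, against 4.61 and 4.38 with doxorubicin, higher in every library with 1035.

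IRF7, the factor that amplifies transcription of type I interferon genes, fell most among the factors. It was at 10.9 and 13.1 CPM with 1035, against 28.8 and 25.3 CPM with DMSO, a log2 fold change of -1.18 ± 0.11 (edgeR adjusted p = 1.3e-11). With 1035 then doxorubicin it was at 12.01 and 10.6 CPM, against 26.4 and 26.1 CPM with doxorubicin. The groups did not overlap. IRF1, an activator that needs no ISGF3 and is itself a target of interferon gamma, was at 334 and 339 CPM with 1035, against 226 and 249 CPM with DMSO (log2 fold change 0.50 ± 0.07, edgeR adjusted p = 2.0e-06), and at 394 and 419 CPM with 1035 then doxorubicin, against 274 and 227 CPM with doxorubicin (0.70 ± 0.07, edgeR adjusted p = 1.1e-08). IRF2, which competes with IRF1 for its sites, was at 72.04 and 72.1 CPM with 1035, against 52.97 and 58.7 CPM with DMSO (0.37 ± 0.07, edgeR adjusted p = 4.8e-05), and at 72.6 and 73.2 CPM with 1035 then doxorubicin, against 57.7 and 53.1 CPM with doxorubicin. IRF1 and IRF2 thus rose in the same libraries. IRF3, which waits in the cytoplasm until a sensor activates it, was at 69.02 and 67.9 CPM with 1035, against 66.5 and 63.4 CPM with DMSO, where its interval of -0.07 to 0.22 lay around no change. With 1035 then doxorubicin it was at 66.5 and 68.01 CPM, against 59.5 and 54.05 CPM with doxorubicin, and rose by 0.24 ± 0.07 (edgeR adjusted p = 0.0063). That call was lost by the authors' deposited adjusted p (0.0910). It was also lost without doxorubicin replicate 2 (log2 fold change 0.18) and without the replicate 2 of 1035 then doxorubicin (0.23). In the GENCODE annotation used here, which is not the authors', IRF9 shares 48.4% of its exon bases with a same-strand gene, and IRF1 and IRF3 share 22.0% and 19.3% with genes of the opposite strand; the sources used here do not give the counter's strand setting, and the part of these reads in the values was not tested.

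**Figure D3:**
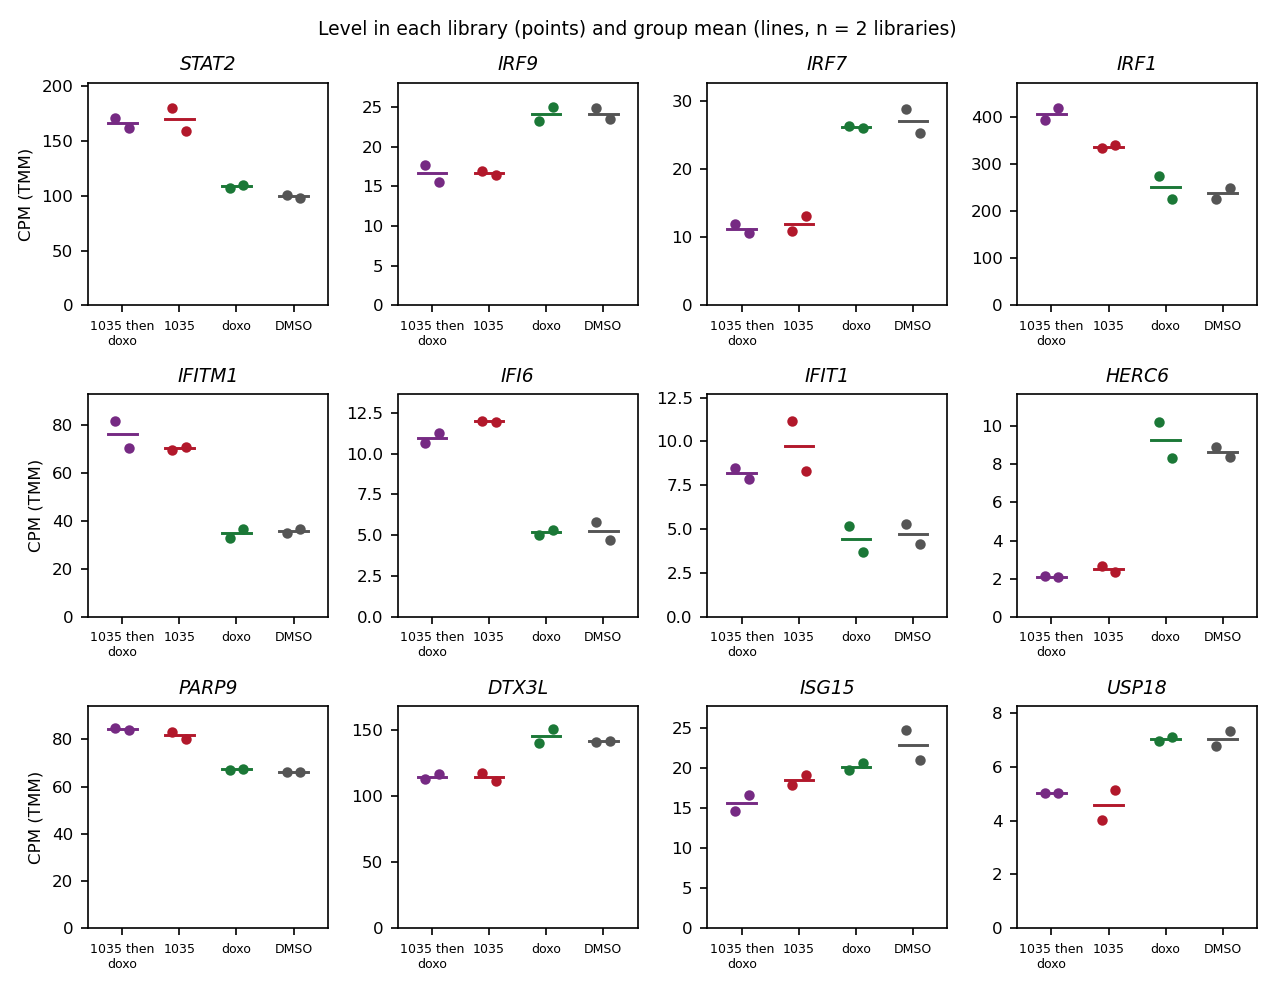
CPM in each library (points) and group mean (lines) for 12 members, groups from left to right 1035 then doxorubicin, 1035, doxorubicin and DMSO. For all 12 the 4 libraries with 1035 lie on 1 side of the 4 without, above for STAT2, IRF1, IFITM1, IFI6, IFIT1 and PARP9, below for IRF9, IRF7, HERC6, DTX3L, ISG15 and USP18.

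The membrane proteins of the IFITM family, which hinder fusion of virus and cell membranes, rose together, and BST2, which tethers budding virus, was flat. IFITM1 was at 69.7 and 71.03 CPM with 1035, against 35.1 and 36.8 CPM with DMSO, and at 82 and 70.6 CPM with 1035 then doxorubicin, against 32.9 and 36.8 CPM with doxorubicin. IFITM3 was at 42.6 and 46 CPM with 1035, against 25.4 and 25.2 CPM with DMSO, and at 41.9 and 45.9 CPM with 1035 then doxorubicin, against 27.4 and 29.9 CPM with doxorubicin. Neither gene had overlapping groups. The log2 fold change with 1035 was 0.97 ± 0.08 for IFITM1 (edgeR adjusted p = 6.5e-13) and 0.81 ± 0.09 for IFITM3 (edgeR adjusted p = 4.9e-10). IFITM2, between 81.0 and 87.4 CPM with 1035, against 62.7 to 63.7 CPM with DMSO, rose by less, 0.41 ± 0.07 (edgeR adjusted p = 4.4e-06). The 3 genes stand side by side on chromosome 11 with no other protein-coding gene between them. Reads of IFITM1 per read of IFITM2 numbered 0.861 and 0.812 with 1035, against 0.551 and 0.588 with DMSO, and 0.901 and 0.836 with 1035 then doxorubicin, against 0.508 and 0.520 with doxorubicin. In the annotation used here IFITM1 and IFITM2 share 32.5% and 22.7% of their exon bases with each other on the same strand, and IFITM3 shares 21.3% with a gene of the opposite strand. The 3 coding sequences are near copies, so single values of these genes are uncertain.

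Of the IFIT genes, which bind viral RNA or partner each other, 3 rose and 1 fell. The shares were 75% and 25%, against 24.2% and 24.8% of all genes tested. IFIT1, which holds RNA whose cap lacks a methyl group, was at 11.2 and 8.29 CPM with 1035, against 5.29 and 4.17 CPM with DMSO, and at 8.51 and 7.85 CPM with 1035 then doxorubicin, against 5.21 and 3.72 CPM with doxorubicin (log2 fold change with 1035 1.04 ± 0.18, edgeR adjusted p = 6.3e-06). IFIT2 was at 12.95 and 12.03 CPM with 1035, against 7.27 and 8.202 CPM with DMSO, and at 14.5 and 13.3 CPM with 1035 then doxorubicin, against 9.01 and 6.22 CPM with doxorubicin (0.69 ± 0.15, edgeR adjusted p = 1.1e-04). IFIT3 was at 11.7 and 11.1 CPM with 1035, against 7.78 and 7.94 CPM with DMSO, and at 10.2 and 9.34 CPM with 1035 then doxorubicin, against 7.11 and 7.92 CPM with doxorubicin (0.54 ± 0.14, edgeR adjusted p = 0.001). In all 3 the groups did not overlap. The call of IFIT3 with doxorubicin present was lost by DESeq2 (adjusted p = 0.187) and by the authors' deposited adjusted p (0.301). It was also lost without doxorubicin replicate 1 (log2 fold change 0.30) and without the replicate 1 of 1035 then doxorubicin (0.33). IFIT5, the neighbour of IFIT1 on chromosome 10 and the family member with the highest count, was at 41.6 and 39.3 CPM with 1035, against 48.7 and 52.1 CPM with DMSO, and fell by 0.32 ± 0.09 (edgeR adjusted p = 0.0023). With 1035 then doxorubicin IFIT5 was at 43.9 and 40.6 CPM, against 53.8 and 44.6 CPM with doxorubicin, and was called lower. That call was lost in 5 of 17 alternative settings, among them DESeq2 (adjusted p = 0.116) and the authors' deposited adjusted p (0.216). Without doxorubicin replicate 1, another of them, the log2 fold change was -0.08. Reads of IFIT1 per read of IFIT5 numbered 0.268 and 0.211 with 1035, against 0.109 and 0.0801 with DMSO. Both promoters printed above carry a pair of ISRE cores.

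The ISG15 pathway split within itself. In this pathway ISG15 is joined to other proteins by the conjugating enzyme UBE2L6 and a ligase, which is HERC5 in human cells and HERC6 in the mouse, and USP18 takes it off again and also restrains the receptor. UBE2L6 rose (0.43 ± 0.07, edgeR adjusted p = 8.7e-07), as did TRIM25, the ligase that modifies the sensor RIG-I (0.24 ± 0.06, edgeR adjusted p = 0.0013). HERC6, ISG15 and USP18 fell, and HERC5 was flat. The shares were 33.3% higher and 50% lower, against 24.2% and 24.8% of all genes tested. HERC6 was at 2.66 and 2.36 CPM with 1035, against 8.92 and 8.400 CPM with DMSO, and at 2.13 and 2.07 CPM with 1035 then doxorubicin, against 10.2 and 8.32 CPM with doxorubicin. This was the largest fall of the 46 members, with a log2 fold change of -1.78 ± 0.21 without doxorubicin (edgeR adjusted p = 5.6e-10) and -2.15 ± 0.22 with it (edgeR adjusted p = 1.5e-11). HERC5, its neighbour on chromosome 4, had 10.4 and 10.7 reads per read of HERC6 with 1035, against 2.76 and 2.58 with DMSO. With 1035 then doxorubicin the ratio was 12.2 and 14.5, against 2.24 and 2.89 with doxorubicin.

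ISG15 itself was at 17.8 and 19.2 CPM with 1035, against 24.7 and 21.03 CPM with DMSO, and at 14.7 and 16.6 CPM with 1035 then doxorubicin, against 19.8 and 20.6 CPM with doxorubicin. Its groups did not overlap, and the log2 fold change with 1035 was -0.31 ± 0.11 (edgeR adjusted p = 0.014). The call was lost by DESeq2 (adjusted p = 0.110) and by the authors' deposited adjusted p (0.0729). It was also lost without DMSO replicate 1 (log2 fold change -0.18) and without 1035 replicate 1 (-0.26). USP18 was at 4.03 and 5.12 CPM with 1035, against 6.76 and 7.34 CPM with DMSO (-0.63 ± 0.18, edgeR adjusted p = 0.0031). With 1035 then doxorubicin it was at 5.02 and 5.04 CPM, against 6.94 and 7.11 CPM with doxorubicin. The call with 1035 alone was lost by DESeq2 (adjusted p = 0.0533) and without 1035 replicate 1 (log2 fold change -0.46). With doxorubicin present USP18 was called lower, at -0.48 ± 0.18 (edgeR adjusted p = 0.025). This did not hold when any 1 of the 4 libraries was left out. Nor did it hold by DESeq2 (adjusted p = 0.166) or by the authors' deposited adjusted p (0.258). USP18 has a near-identical copy, USP41, which fell by 2.07 on the log2 scale with 1035, at 1.08 and 2.68 CPM with 1035, against 7.97 and 7.47 CPM with DMSO; reads of the 2 genes can be split between them, so the value of USP18 is uncertain.

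**Figure D4:**
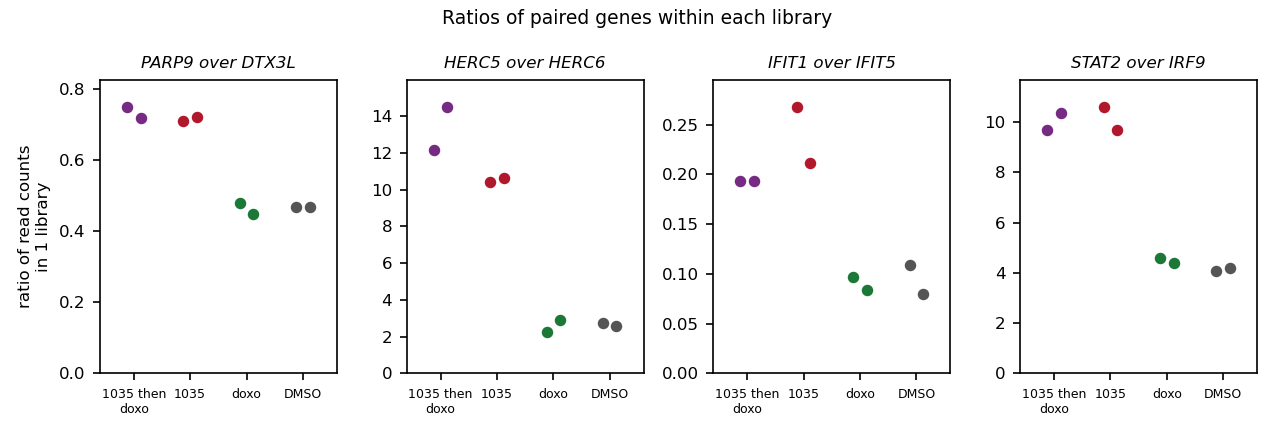
Ratio of read counts of 4 pairs of members within each library, groups from left to right 1035 then doxorubicin, 1035, doxorubicin and DMSO; each point is 1 library. In all 4 pairs the 4 libraries with 1035 lie above the 4 without, as for PARP9 over DTX3L at 0.711 to 0.750 with 1035, against 0.449 to 0.478 without.

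PARP9 and DTX3L, which work as a complex that modifies histones and ubiquitin, start next to each other on opposite strands of chromosome 3 and moved in opposite directions. They lie below the size set for a value in every library and were singled out after their values were seen, because of this shared start. PARP9 was at 83.3 and 80.2 CPM with 1035, against 66.04 and 66.2 CPM with DMSO (0.31 ± 0.07, edgeR adjusted p = 1.8e-04), and at 84.7 and 83.8 CPM with 1035 then doxorubicin, against 66.9 and 67.6 CPM with doxorubicin. DTX3L was at 117 and 111 CPM with 1035, against 141 and 142 CPM with DMSO (-0.31 ± 0.06, edgeR adjusted p = 5.7e-05), and at 113 and 116 CPM with 1035 then doxorubicin, against 140.0 and 151 CPM with doxorubicin. Neither gene had overlapping groups. PARP9 reads per DTX3L read numbered 0.711 and 0.721 with 1035, against 0.468 and 0.467 with DMSO, and 0.750 and 0.720 with 1035 then doxorubicin, against 0.478 and 0.449 with doxorubicin. The windows of both genes hold 1 and the same ISRE core, at chr3:122564332-122564341 (GRCh38.p14), whose first base lies 41 bases before the start of PARP9 and 6 before that of DTX3L. It is shown with the 10 bases on either side, once along each gene, with the core in capitals.
PARP9: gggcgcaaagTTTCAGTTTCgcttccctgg
DTX3L: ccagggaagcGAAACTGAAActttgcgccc
The exons of the 2 genes overlap by 2.4% of PARP9 and 3.7% of DTX3L. PARP14, a further ADP-ribosyl transferase of the same chromosome and the most counted member, was flat at 550.1 and 498 CPM with 1035, against 499 and 501 CPM with DMSO. Of the nuclear body proteins, SP110 rose (0.42 ± 0.09, edgeR adjusted p = 2.4e-04) and SP100 was flat, with an interval of -0.28 to 0.02. SP110 shares 20.9% of its exon bases with genes of the opposite strand.

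Of 10 sensors of foreign nucleic acids and their effectors, 2 rose with 1035 (20%, against 24.2% of all genes tested). In the same list 1 fell (10%, against 24.8% of all genes). These shares were no higher than those of all genes. Another 6 were flat, among them DDX58 (RIG-I) and IFIH1 (MDA5), which detect viral RNA, and DHX58, which tunes both. The rest of these were IFI16, which binds DNA, EIF2AK2 (PKR), which stops translation, and the RNA editor ADAR. OAS3 was undecided. DDX58 was near the threshold, at 34.3 and 29.7 CPM with 1035, against 26.2 and 29.7 CPM with DMSO (log2 fold change 0.20 ± 0.09, interval 0.01 to 0.39, edgeR adjusted p = 0.069). It was called higher in 7 of 17 alternative settings, among them upper-quartile scaling (0.26, edgeR adjusted p = 0.018). Its log2 fold change was 0.30 without 1035 replicate 2 and 0.29 without DMSO replicate 2, each fit leaving 1 library in that group. IFIH1, at 0.14 ± 0.10 (edgeR adjusted p = 0.27), was at 0.30 without 1035 replicate 2. Both rose in 1035 then doxorubicin against DMSO, DDX58 by 0.29 ± 0.09 (edgeR adjusted p = 0.0078) and IFIH1 by 0.37 ± 0.10 (edgeR adjusted p = 0.0021). This call of DDX58 was lost in 3 of 16 alternative settings, among them DESeq2 (adjusted p = 0.066). OAS3 was also higher in 1035 then doxorubicin against DMSO. In that comparison 3 of the 10 were thus higher (30%, against 24.5% of all genes) and 0 lower (24.7% of all genes). Of the oligoadenylate synthetases, which make the activator of RNase L, OAS1 was at 12.95 and 11.3 CPM with 1035, against 8.48 and 6.15 CPM with DMSO, and at 12.01 and 8.02 CPM with 1035 then doxorubicin, against 6.55 and 9.61 CPM with doxorubicin. OAS1 rose with 1035 (0.73 ± 0.22, edgeR adjusted p = 0.017) but not when leaving out DMSO replicate 2 (0.52, adjusted p = 0.0843) or 1035 replicate 1 (adjusted p = 0.115). With doxorubicin present its groups overlapped and the test did not pass (0.35 ± 0.23, edgeR adjusted p = 0.25). Its log2 fold change was 0.63 without doxorubicin replicate 2 and 0.61 without the replicate 2 of 1035 then doxorubicin. Each of these fits leaves 1 library in a compared group. OASL, a relative without synthetase activity, was near the limit of detection at 1.295 and 1.38 CPM with 1035, against 0.701 and 0.463 CPM with DMSO, and at 0.912 and 0.909 CPM with 1035 then doxorubicin, against 0.5597 and 0.808 CPM with doxorubicin. It rose by 1.18 ± 0.48 (edgeR adjusted p = 0.034). The call was lost when any 1 of the libraries of 1035 or DMSO was left out, and by DESeq2 (adjusted p = 0.167). By the authors' deposited adjusted p it did not pass either. OAS2 went down by 0.29 ± 0.10 (edgeR adjusted p = 0.021), which did not hold in 8 of 17 alternative settings, among them leaving out DMSO replicate 1 (log2 fold change -0.12, adjusted p = 0.429) or 1035 replicate 2 (-0.17, adjusted p = 0.226). OAS1, OAS3 and OAS2 stand in a row on chromosome 12 with no protein-coding gene between them.

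Of the intracellular restriction factors, ISG20 and MX1 rose with 1035, and MX2 and SAMHD1 were flat. ISG20, an exonuclease, was at 12.4 and 11.8 CPM with 1035, against 6.37 and 6.42 CPM with DMSO, and at 10.03 and 8.43 CPM with 1035 then doxorubicin, against 6.21 and 6.54 CPM with doxorubicin. Its groups did not overlap. The log2 fold change was 0.92 ± 0.15 without doxorubicin (edgeR adjusted p = 1.1e-06) and 0.54 ± 0.15 with it (edgeR adjusted p = 0.0034). The second call was lost by DESeq2 (adjusted p = 0.059) and by the authors' deposited adjusted p (0.141). It was also lost without the replicate 1 of 1035 then doxorubicin (log2 fold change 0.41). MX1, a GTPase that traps viral nucleoproteins, was at 17.6 and 16.8 CPM with 1035, against 12.05 and 6.88 CPM with DMSO, and at 14.97 and 13.6 CPM with 1035 then doxorubicin, against 8.06 and 11.8 CPM with doxorubicin. The 2 DMSO libraries of MX1 lay far apart. Its rise of 0.86 ± 0.27 (edgeR adjusted p = 0.038) was lost by the authors' deposited adjusted p (0.0637). It was also lost without either 1035 library and without either library of 1035 then doxorubicin. With doxorubicin present the 4 libraries of MX1 did not overlap, and its 0.56 ± 0.28 did not pass (edgeR adjusted p = 0.16). It was called higher in 5 of 17 alternative settings, among them the compared libraries alone (0.56, edgeR adjusted p = 0.00188). Without doxorubicin replicate 2, which leaves 1 library in that group, the log2 fold change was 0.83. SAMHD1, which depletes the building blocks of DNA, was lower with 1035 then doxorubicin than with doxorubicin (-0.32 ± 0.09, edgeR adjusted p = 0.0032). This call was lost by the authors' deposited adjusted p (0.0803) and without the replicate 1 of 1035 then doxorubicin (log2 fold change -0.27).

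Of the 7 other interferon-induced genes, IFI6 and EPSTI1 rose (28.6%, against 24.2% of all genes tested). IFI6, a small membrane protein, was at 12.02 and 11.9 CPM with 1035, against 5.801 and 4.696 CPM with DMSO, and at 10.6 and 11.2 CPM with 1035 then doxorubicin, against 5.04 and 5.33 CPM with doxorubicin. Its groups did not overlap, and it had the largest rise of the 46 members with 1035 (1.19 ± 0.15, edgeR adjusted p = 1.4e-08; with doxorubicin present 1.08 ± 0.16, edgeR adjusted p = 2.3e-07). Its promoter, printed above, holds 3 ISRE cores. EPSTI1 was at 2.73 and 3.09 CPM with 1035, against 1.78 and 0.8598 CPM with DMSO, and at 2.74 and 2.15 CPM with 1035 then doxorubicin, against 1.06 and 2.18 CPM with doxorubicin. Its rise of 1.12 ± 0.34 (edgeR adjusted p = 0.0047) was lost by DESeq2 (adjusted p = 0.0579) and without DMSO replicate 2 (0.70). With doxorubicin present the groups overlapped and the test did not pass (0.67 ± 0.34, edgeR adjusted p = 0.11). Its log2 fold change was 1.2 without doxorubicin replicate 2, a fit with 1 library left in that group. XAF1 was flat at 139 and 133 CPM with 1035, against 138 and 134 CPM with DMSO; it shares 38.3% of its exon bases with a gene of the opposite strand. IFI27 and IFI44L were at under 5 CPM in all but 1 library, the doxorubicin replicate 2 of IFI44L at 7.51 CPM.

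Some members passed the test in only 1 of the 2 comparisons of 1035. EPSTI1, MX1, OAS1 and OASL passed with 1035 alone and did not pass with doxorubicin present. In that setting MX1 passed with the compared libraries alone, as given above. All 4 libraries of MX1 and OASL with 1035 lay above the 4 without. HERC5 and IRF3 rose with doxorubicin present and did not pass without it. Without it HERC5 was called higher in 3 of 17 alternative settings. ADAR, EIF2AK2, IFI35 and SAMHD1 were lower with doxorubicin present and did not pass without it. Single libraries decide several of these. The calls with doxorubicin present were lost for ADAR without doxorubicin replicate 2 (adjusted p = 0.097) and for EIF2AK2 without the same library (adjusted p = 0.168) or the replicate 1 of 1035 then doxorubicin (adjusted p = 0.0844). They were lost for HERC5 without doxorubicin replicate 1 (log2 fold change 0.21) or the replicate 2 of 1035 then doxorubicin (0.15). For IFI35 they were lost without doxorubicin replicate 1 (-0.37) or the replicate 1 of 1035 then doxorubicin (-0.32). HERC5 and IFI35 also did not pass by DESeq2 (adjusted p = 0.180 and 0.214) or by the authors' deposited adjusted p (0.257 and 0.305). No difference between the 2 settings was itself past the test. The interaction, which sets the effect of 1035 in doxorubicin-treated cells against that in cells without doxorubicin, called 0 members higher and 0 lower by edgeR (0.0184% of all genes were called higher and 0% lower), 0 at an unadjusted p under 0.05, and 0 by DESeq2. Of the 46, 29 had a 95% interval of the interaction within -0.5 to 0.5 and 17 a wider one. Without doxorubicin replicate 1, which leaves 1 library in that group, the interaction was 0.34 for IRF1 and -1.35 for IFI44L.

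With doxorubicin alone no member passed the test when all libraries were fitted. Against DMSO, 0 members were higher (0.784% of all genes) and 0 lower (0.545% of all genes) by edgeR, 7 had an unadjusted p under 0.05, and DESeq2 and the authors' deposited table called 0. Of the 46, 35 were flat and 11 undecided; the median log2 fold change was 0.07, against -0.01 for all genes. Some values depend on doxorubicin replicate 1. A fit without it has 1 doxorubicin library and no estimate of the spread within that group. In that fit the log2 fold change was 0.31 for EIF2AK2, 0.55 for OAS3, 0.24 for TRIM25 and 0.22 for XAF1. It was 0.34 for SP110, 1.13 for IFI44L, 0.29 for ADAR and -0.27 for IRF3. The largest fitted value with all libraries was that of IFI44L, 0.53 with an interval of -0.74 to 1.79, from 2.91 and 7.51 CPM with doxorubicin, against 4.21 and 2.65 CPM with DMSO.

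After 1035, doxorubicin again called 0 members higher (0.349% of all genes) and 0 lower (0.147% of all genes) by edgeR, 7 had an unadjusted p under 0.05, and DESeq2 called 0; 33 were flat and 13 undecided. IRF1 came closest, with 394 and 419 CPM with 1035 then doxorubicin, against 334 and 339 CPM with 1035, whose libraries did not overlap (0.27 ± 0.07, edgeR adjusted p = 0.11). Its edgeR adjusted p was 0.00123 when only these 4 libraries were fitted, and the authors' deposited table gives an adjusted p of 6.5e-04. It was above the threshold when any 1 of the 4 compared libraries was left out. Against DMSO, 1035 then doxorubicin gave 21 members higher (45.7%, against 24.5% of all genes) and 8 lower (17.4%, against 24.7% of all genes). This comparison shares its DMSO libraries with that of 1035 alone. Fewer members were called lower without the replicate 2 of 1035 then doxorubicin, a fit whose share of all genes is not given here.

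**Figure D5:**
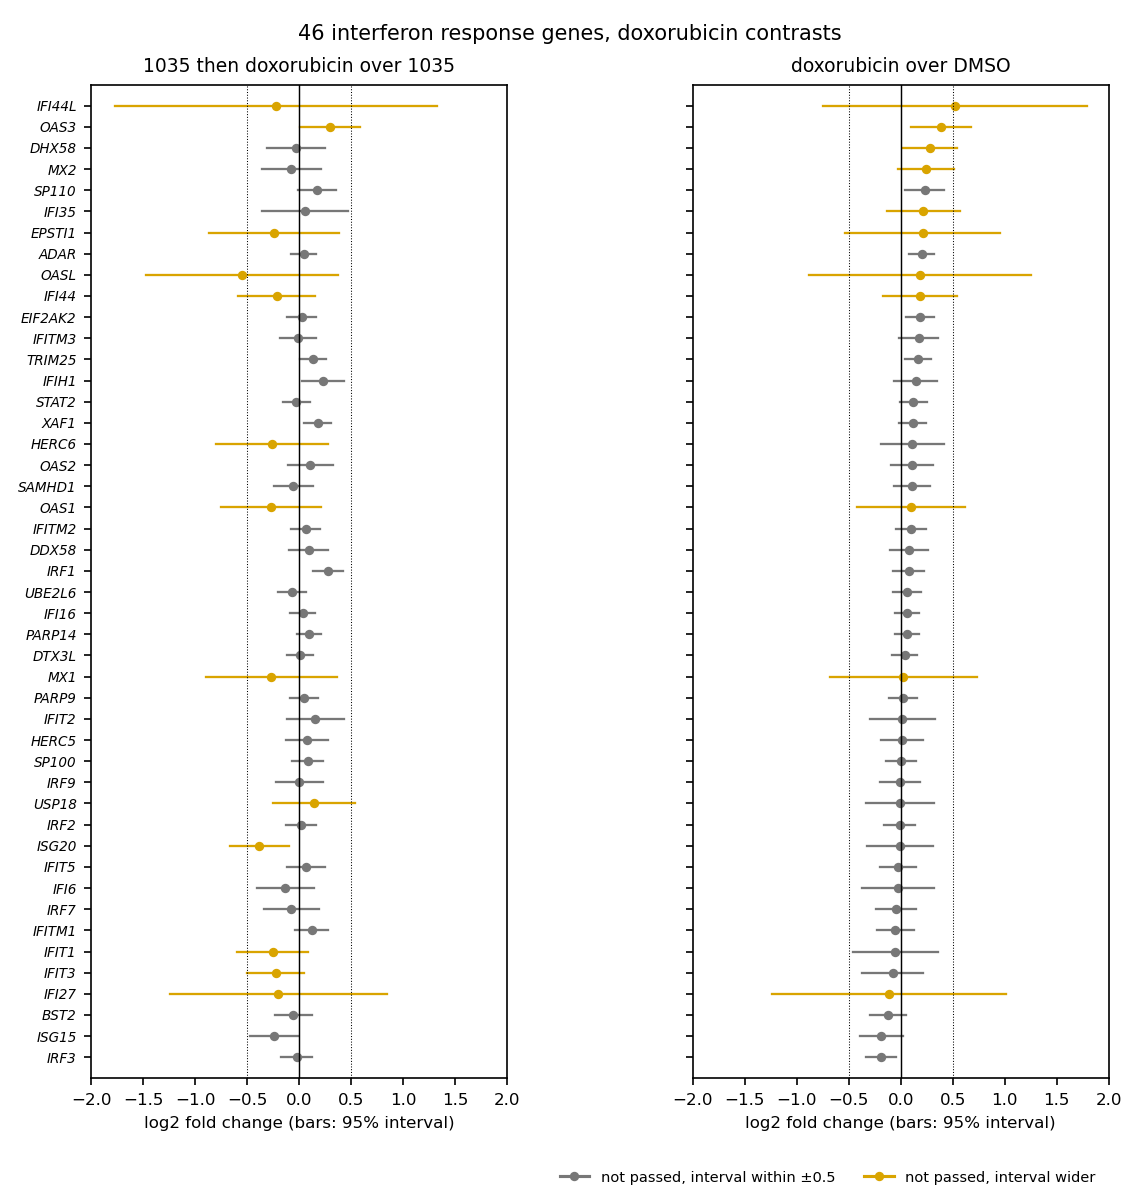
Log2 fold change with 95% interval of the 46 members, 1035 then doxorubicin over 1035 (left) and doxorubicin over DMSO (right), in the order of the right panel. No member passes the test in either panel, and 33 on the left and 35 on the right have an interval within -0.5 to 0.5, marked by dotted lines.

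Per kilobase of the gene length that the authors' FPKM values imply, the highest levels with 1035 were those of IFITM1 (65.1 CPM per kilobase), IFITM2 (64.4), PARP14 (49.9), IFI16 (45.7) and IRF1 (43.1). With DMSO the order was IFITM2 (48.3), IFI16 (48.0), PARP14 (47.6), IFITM1 (33.2) and ISG15 (32.1). The 3 leading DMSO levels, and those of IFITM1 and IFITM2 with 1035, lie within 1 CPM per kilobase of each other and give no order. The lowest levels were those of IFI27, 0.234 CPM per kilobase with 1035 and 0.155 with DMSO.

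The rest of the pathway was looked at in lists set by function. Of 10 receptor and signalling genes reported here, 5 rose (50%, against 24.2% of all genes tested) and 2 fell (20%, against 24.8% of all genes) with 1035. IFNAR2 rose by 0.37 ± 0.09 (edgeR adjusted p = 5.6e-04) and JAK1 by 0.17 ± 0.06 (edgeR adjusted p = 0.016), TYK2 went down by 0.23 ± 0.06 (edgeR adjusted p = 0.0019), and IFNAR1 was flat at 60.1 and 59.1 CPM with 1035, against 64.4 and 59.2 CPM with DMSO. Of 10 negative regulators tested, 3 rose (30%) and 2 fell (20%), near those shares of all genes. The adaptor and kinase list had 17 tested gene identifiers for 16 symbols, and TLR8 had no row. Of these identifiers, 5 rose (29.4%) and 4 fell (23.5%), again near the shares of all genes. Among them the DNA-sensing pair moved in opposite directions. TMEM173 (STING) was at 26.2 and 26.3 CPM with 1035, against 14.6 and 10.4 CPM with DMSO (1.07 ± 0.12, edgeR adjusted p = 1.3e-09). MB21D1 (cGAS), the enzyme upstream of it, was at 28 and 31.1 CPM with 1035, against 61.6 and 68.1 CPM with DMSO (-1.14 ± 0.09, edgeR adjusted p = 1.2e-13).

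Of 38 further interferon-induced genes with counts, out of 42 listed, 17 rose (44.7%, against 24.2% of all genes tested) and 10 fell (26.3%, against 24.8% of all genes) with 1035, with a median log2 fold change of 0.16. Those past 1 were IFI30, a thiol reductase of antigen processing, at 33.8 and 35.4 CPM with 1035, against 10.7 and 10.8 CPM with DMSO (1.68 ± 0.11), GBP5 at 129 and 123 CPM with 1035, against 41.8 and 44.2 CPM with DMSO (1.55 ± 0.07), GBP2 (1.05 ± 0.08) and C19orf66 (1.05 ± 0.10), whose edgeR adjusted p-values were between 2.4e-21 and 1.1e-11. None of the 9 interferon genes listed had a row under its symbol in the 4 tables as used. These tables hold no gene with under 10 reads over their 4 libraries.

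SupB15 libraries carried the 10 precursor B-cell markers chosen for the check, all at 1 CPM or more in all 8 libraries, and their summed level was 2975 to 3002 CPM with 1035, against 4036 to 4257 CPM with DMSO. With 1035 then doxorubicin it was 2791 to 2888 CPM, against 3938 to 4159 CPM with doxorubicin. Of the 10, 6 fell and 3 rose with 1035, while 24.8% of all genes tested fell and 24.2% rose. The falls were largest for IGLL1 and DNTT, at -1.80 and -0.88 on the log2 scale, and CD79A, CD79B and CD34 rose by 0.43, 0.31 and 0.18. Of 6 markers of plasmacytoid dendritic cells, cells that make much interferon, 3 had counts, while CLEC4C and GZMB had no row in the tables as used. The sum of the 3, mostly TCF4, was 294 to 327 CPM with 1035, against 215 to 223 CPM with DMSO. TCF4 rose by 0.53, SPIB fell by 0.52 and IL3RA, at -0.25, did not pass the test. The 3 monocyte markers with counts summed to 19.2 to 22.4 CPM with 1035, against 15.6 to 16.4 CPM with DMSO. CSF1R rose by 0.55 and LYZ fell by 0.56 on the log2 scale. ITGAM was called higher by 1.09, at 0.936 and 2.60 CPM with 1035, against 1.02 and 0.595 CPM with DMSO. This call rests on 1 library and few reads. CD14 and CD163 had no row in the tables as used. No T or NK cell marker had counts in all libraries. The part of these shifts in the values of the 46 members was not tested.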

How the data were processed

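Per the labels' protocols, total RNA of SupB15 cells was isolated with a Versagene kit, made into stranded TruSeq libraries after Ribo-Zero Gold depletion and read as single reads; per the submitters' processing notes, Novoalign 2.08.01, hg19 and DESeq2 1.4.5 were used. The sources used here name neither the read counter with its strand setting nor the annotation. Per the file headers, the 4 tables the authors deposited hold raw read counts per gene, FPKM values, log2 fold changes and adjusted p-values. The deposited counts were used for all tests, the deposited FPKM for gene lengths alone, and the deposited log2 fold changes and adjusted p-values as an alternative.

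Gene identifiers joined the tables, and all 132880 counts present in several of them were equal. Of 17849 genes, 1241 lacked a count in some library and were left out, and filterByExpr removed 288 more. After TMM scaling, edgeR 4.0.16 (R 4.3.3) fitted its robust quasi-likelihood model to the counts of all 8 libraries with 4 group means, which left 4 residual degrees of freedom. Tests were two-sided, with Benjamini-Hochberg adjustment over all genes tested, and were tested on simulated data. Standard errors came from the same fit. The design text calls both samples of each treatment independent; the spread between them was 1.76 (DMSO), 3.08 (1035), 4.47 (doxorubicin) and 2.16 (1035 then doxorubicin) times sampling noise, as chi-square per degree of freedom, and is pooled over groups, so comparisons with doxorubicin borrow from groups with less spread.

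The members, their role lists, the other pathway lists (receptors and signalling, negative regulators, adaptors and kinases, interferon genes, further interferon-induced genes) and the cell markers were chosen with earlier results of these data known. Values in every library are given for the transcription factors. They are also given for members past the FDR with a log2 fold change of at least 0.5 in either comparison of 1035. The same was set for members past the FDR in doxorubicin against DMSO, in 1035 then doxorubicin against 1035 or in the interaction. A call in 1035 then doxorubicin against DMSO alone did not count for this. Other members stand by range and counts. ISG15, IFIT5, PARP9, DTX3L, PARP14, XAF1 and IFITM2 were added after their values were seen. Genes of the other pathway lists are named past a log2 fold change of 1, beside JAK1, TYK2, IFNAR1 and IFNAR2; 1 gene of the receptor and signalling list is not reported here and is left out of its counts. Promoter windows are RefSeq's (GRCh38.p14) and exon overlaps GENCODE's; no coordinate was carried to or from hg19. Alternatives were other scalings, other count filters, DESeq2 1.42.0, the compared libraries alone, a replicate block and each library left out.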

Additional observations from a re-analysis of the deposited data

How the results depend on the processing

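No member changed direction between a called value and its alternatives. Of 85 calls on members in the 3 comparisons that made any, 55 passed in every alternative and 30 were lost in at least 1: 7 in 1035 against DMSO (EPSTI1, ISG15, MX1, OAS1, OAS2, OASL and USP18), 14 in 1035 then doxorubicin against doxorubicin and 9 in 1035 then doxorubicin against DMSO; 29 results without a call gained one, of which 5 were in 1035 against DMSO, 8 in 1035 then doxorubicin against doxorubicin and 9 in doxorubicin against DMSO. The count of lower members was 5 by DESeq2 in 1035 against DMSO, and in 1035 then doxorubicin against doxorubicin it was 7 by DESeq2 and 6 in the authors' deposited table, where 11 were higher. Against DMSO, 1035 then doxorubicin gave 5 lower by DESeq2. In doxorubicin against DMSO 1 member was higher when genes under a mean normalised count of 50 were dropped and 1 without library 2 of 1035 and of doxorubicin together. In 1035 then doxorubicin against 1035 the only member gained was IRF1: 1 higher with only the libraries of the comparison, 1 without library 2 of 1035 and of doxorubicin together and 1 in the authors' deposited table. Leaving out 1 library at a time gave 6 to 12 lower in 1035 then doxorubicin against doxorubicin, 5 to 8 lower in 1035 then doxorubicin against DMSO, 0 to 7 higher and 0 to 1 lower in doxorubicin against DMSO, 0 to 1 higher in 1035 then doxorubicin against 1035, and 0 to 1 higher and 0 to 1 lower in the interaction; the cause was not tested. A compared group that lost a library kept 1. A call gained there rests on spread taken from the other groups. Other gained calls came from leaving out a library of a group outside the comparison, where both compared groups kept 2 libraries. One example is IRF1 in 1035 then doxorubicin against 1035 without either doxorubicin library (log2 fold change 0.27). MX1 in 1035 then doxorubicin against doxorubicin without either DMSO library (0.56) is another. The shares of all genes called in these fits are not given here, so the counts of members are not set against them. Upper-quartile scaling shifted the median of all genes by at most 0.0600, and the size factors of DESeq2 by -0.0064 to -0.0007. Replicate numbers did not pair the samples: same-numbered differences correlated between -0.082 and 0.08 over 12067 genes, and a replicate block gave the same counts, 19 higher and 8 lower in 1035 against DMSO, 17 and 12 in 1035 then doxorubicin against doxorubicin, and 0 in each of doxorubicin against DMSO, 1035 then doxorubicin against 1035 and the interaction. None of the authors' 4 deposited tables used here is of the interaction or of 1035 then doxorubicin against DMSO, so that alternative has no value there. Depth limits the members under about 10 CPM, 10 of 46 by mean with 1035 and 18 with DMSO; 2 libraries a group limit the rest.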
